A study of Mus musculus with 4 samples.

Results

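Matrix metalloproteinases and their tissue inhibitors were followed in mouse cortex 24 h after permanent middle cerebral artery occlusion (pMCAO). The 10 genes were the inhibitors *Timp1*, *Timp2* and *Timp3*, the matrix metalloproteinases *Mmp2*, *Mmp3*, *Mmp9*, *Mmp12* and *Mmp14*, and the proteases *Adamts1* and *Adamts20*. They were taken by name, and every probe set that the array annotation assigns to 1 of these genes alone was used. This gave 22 of 34958 such probe sets, for 10 of 18194 genes, and 5 of the 10 genes had 1 probe set each. The left middle cerebral artery was occluded in 3-month-old C57BL/6J mice that were wild type (WT) or deficient for P4H-TM (*P4htm*-/-, KO in the plots), the transmembrane prolyl 4-hydroxylase. Contralateral and ipsilateral cortex of each genotype gave 4 conditions, with the RNA of 4 mice pooled on 1 Affymetrix array for each. The mutant line had been backcrossed to C57BL/6, and the mice were perfused with saline before dissection. All mice were operated, so the contralateral cortex is that of an injured animal, and the whole ipsilateral cortex holds infarcted and spared tissue together. No array has a replicate, so no difference carries a test or an error of its own, and the values describe these pools.

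Values are on the log2 scale, where a difference of 1 is a doubling. The background limit was 4.78, below which lie 95% of the values of 83 probe sets for sensory receptors of nose and tongue (olfactory, vomeronasal and bitter taste). The same receptor probe sets differed between arrays with an SD of 0.18 to 0.21, a technical scatter that leaves out the variation between mice. It was measured mostly at values below the background limit, and the scatter of bright probe sets was not determined. A probe set was called higher or lower if at least 1 of the compared arrays exceeded this limit and the difference reached 1.5-fold, which is 0.585. Where the dimmer value was not above background, the difference from the limit is given as a bound. Array medians were 5.53 to 5.55. The targeted gene *P4htm* read 10.03 and 10.02 on the WT arrays and 8.27 and 8.23 on the *P4htm*-/- arrays at its brighter probe set, and whether this lies in the deleted part was not determined. The 8 neuron markers used as a check of the tissue were above background on every array, with means of 11.73 to 11.86.

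Metalloproteinases are zinc-dependent enzymes that cut the proteins of the extracellular matrix and of the basal lamina around vessels. Most are made as inactive precursors, and other proteases remove the propeptide. Tissue inhibitors of metalloproteinases (TIMPs) bind the active site and block it. After a stroke these enzymes are known for opening the blood brain barrier early and for tissue remodelling later. Transcript levels do not measure enzyme activity.

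Promoter sequence, credited to RefSeq on the build GRCm38.p6, was found for 8 of the 10 genes and not for *Mmp2* and *Mmp9*. The 250 bases before an annotated start are printed for the 4 genes that were higher in WT ipsilateral cortex at their brightest probe set. Capitals mark the letters TGANTCA, the binding motif of AP-1, and the letters ACGTG or GCGTG, the core of the element that hypoxia-inducible factors bind, on either strand. The sequence of *Timp1* lies at chrX:20869916-20870165 on the plus strand and that of *Mmp3* at chr9:7445572-7445821 on the plus strand. *Mmp12* has more than 1 annotated start, and the sequence printed is the one with a match, at chr9:7347124-7347373 on the plus strand. It lies before a start inside the gene's span of chr9:7344397-7360461. The 250 bases in front of that span, at chr9:7344147-7344396, held 0 matches. The sequence of *Adamts1* lies at chr16:85803114-85803363 on the minus strand.
Timp1: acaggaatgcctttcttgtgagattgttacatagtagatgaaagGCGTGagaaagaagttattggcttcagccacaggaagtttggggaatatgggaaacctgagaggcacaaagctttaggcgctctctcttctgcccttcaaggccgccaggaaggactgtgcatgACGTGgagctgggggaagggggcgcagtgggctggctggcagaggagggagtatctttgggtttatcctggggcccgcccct
Mmp3: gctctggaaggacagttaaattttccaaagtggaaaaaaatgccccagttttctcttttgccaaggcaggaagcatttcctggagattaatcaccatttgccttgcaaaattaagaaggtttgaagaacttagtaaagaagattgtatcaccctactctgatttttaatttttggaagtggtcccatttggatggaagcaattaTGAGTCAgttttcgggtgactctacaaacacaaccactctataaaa
Mmp12: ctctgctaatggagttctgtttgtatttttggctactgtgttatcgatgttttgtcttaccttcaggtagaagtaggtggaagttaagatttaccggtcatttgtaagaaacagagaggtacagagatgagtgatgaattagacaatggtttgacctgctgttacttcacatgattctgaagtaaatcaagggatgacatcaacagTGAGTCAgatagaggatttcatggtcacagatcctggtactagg
Adamts1: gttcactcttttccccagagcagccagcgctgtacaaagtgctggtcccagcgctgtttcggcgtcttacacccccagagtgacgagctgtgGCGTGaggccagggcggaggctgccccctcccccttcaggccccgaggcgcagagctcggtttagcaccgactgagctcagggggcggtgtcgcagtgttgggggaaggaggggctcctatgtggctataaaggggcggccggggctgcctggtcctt

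The *Mmp3* sequence held TGAGTCA 46 to 40 bases before the start. The printed *Mmp12* sequence held the same letters 44 to 38 bases before a start inside the gene. These were the AP-1 matches among the members' sequences. Of 32851 sequences of the same length in front of mouse genes, 6.75% held a match to TGANTCA. *Timp1* had ACGTG 82 to 78 bases and GCGTG 206 to 202 bases before its start, and *Adamts1* had GCGTG 158 to 154 bases before it. ACGTG or its reverse complement was found in 16.6% and GCGTG or its reverse complement in 28.2% of all such sequences. *Timp2*, *Timp3*, *Mmp14* and *Adamts20* each held at least 1 of these short hypoxia letters as well, and in *Adamts20* the matches overlap by 1 base. The *Adamts20* sequence, like the printed one of *Mmp12*, lies before a start inside the gene's annotated span. TTCNNNGAA, which STAT factors bind, was in 7.02% of all sequences and in 0 of the members'. A match is a description of the letters and not a measured binding site.

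**Figure D1:**
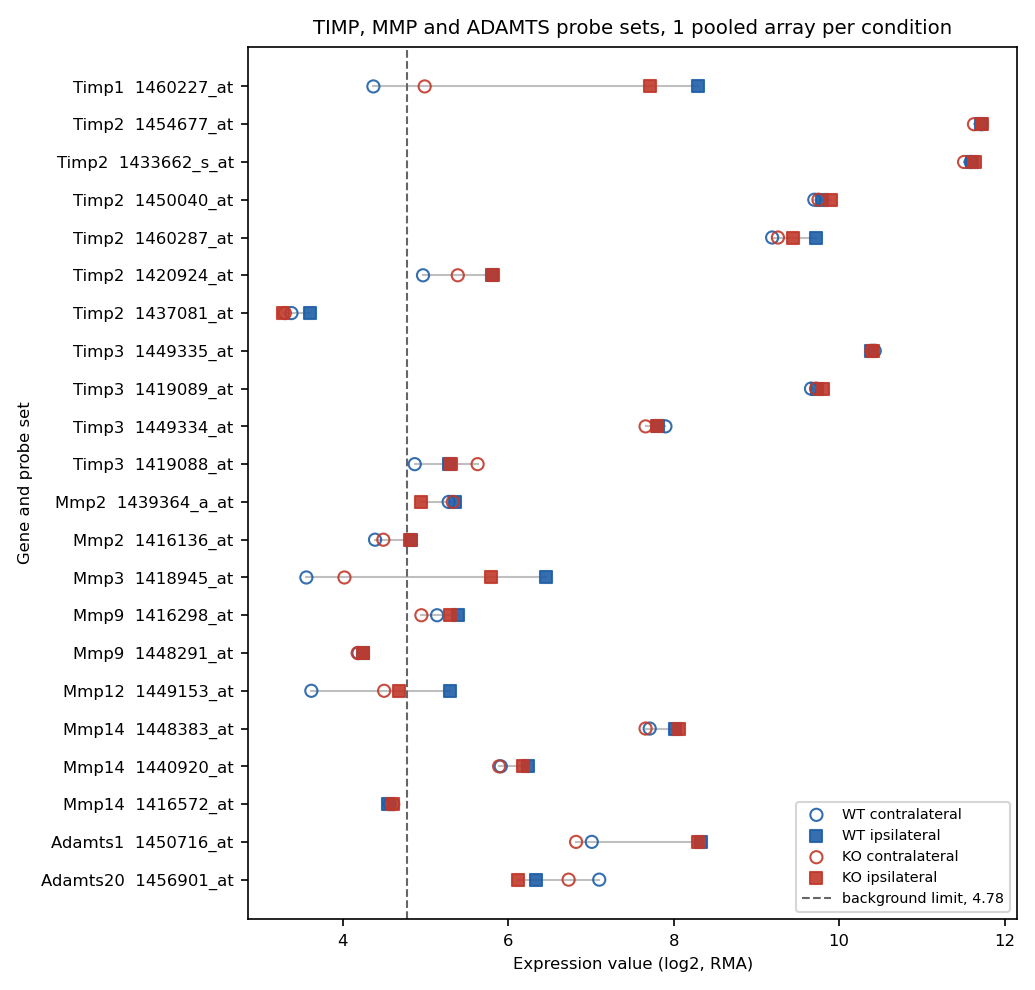
Log2 RMA expression value (horizontal axis) of each probe set of the 10 genes (vertical axis) on the 4 arrays, with WT in blue, *P4htm*-/- (KO) in red, open circles contralateral, filled squares ipsilateral, 1 pooled array per symbol, and a dashed line at the limit of 4.78. The wide gaps between sides belong to *Timp1*, *Mmp3* and *Adamts1* in both genotypes and to *Mmp12* in WT alone, and *Adamts20* runs the other way. Values left of the dashed line are not resolved.

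To see how the family responded to ischemia, the ipsilateral cortex was compared with the contralateral cortex in each genotype. In WT cortex *Timp1*, *Mmp3*, *Mmp12*, *Adamts1* and 1 probe set of *Timp2* were higher and *Adamts20* was lower on the ipsilateral side. Of the 22 probe sets 19 were above background in this comparison, with 5 higher and 1 lower, where 2.13% of all 23643 detected probe sets were higher and 0.799% were lower. With values below background set to the limit, an alternative chosen after seeing the data, *Mmp12* falls short and 4 were higher, beside 1.80% of all. The median of the 19 was 0.30, beside -0.03 for all detected probe sets. In *P4htm*-/- cortex *Timp1*, *Mmp3* and *Adamts1* were higher and *Adamts20* was lower, 3 and 1 of 18 detected probe sets, beside 1.27% and 0.186% of all 23645. Their median was 0.16, beside -0.01 for all. In such bulk RNA, more cells of a type and more RNA per cell cannot be told apart. The 10 genes were chosen with earlier results of these arrays known, so the counts are a description.

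*Timp1*, a secreted inhibitor of most metalloproteinases, had the widest range of the family. Its probe set 1460227_at read 4.37 in WT contralateral, 8.29 in WT ipsilateral, 4.99 in *P4htm*-/- contralateral and 7.71 in *P4htm*-/- ipsilateral cortex. Both ipsilateral arrays were far above both contralateral arrays, and the WT contralateral value was not above background. The ipsilateral value was therefore at least 3.51 higher in WT cortex, or at least 11.4-fold, and 2.72 higher in *P4htm*-/- cortex, or 6.59-fold. In *P4htm*-/- cortex, where both values were above background, it was number 8 from the top among 23645 detected probe sets.

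*Timp2*, an inhibitor that also helps MMP14 to activate the MMP2 precursor, had 6 probe sets that did not give the same picture. The brightest, 1454677_at, read 11.72 on the WT contralateral, 11.72 on the WT ipsilateral, 11.63 on the *P4htm*-/- contralateral and 11.73 on the *P4htm*-/- ipsilateral array. The next, 1433662_s_at and 1450040_at, differed between sides by 0.02 and 0.09 in WT and by 0.13 and 0.15 in *P4htm*-/- cortex. These 3 probe sets differed less between sides than the receptor probe sets scatter. In contrast, 1460287_at read 9.19, 9.72, 9.26 and 9.44 in the same order of arrays, a difference of 0.53 in WT and 0.18 in *P4htm*-/- cortex. The dim 1420924_at read 4.97, 5.80, 5.39 and 5.82, so it was past 1.5-fold in WT, at 0.83, and not in *P4htm*-/- cortex, at 0.43. The sixth, 1437081_at, was not above background on any array. Which part of the transcript each probe set reads was not determined, so a response of *Timp2* as a gene is not established by these values.

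*Timp3*, an inhibitor held in the matrix that also blocks ADAMTS enzymes, had 3 bright probe sets with small differences. The brightest, 1449335_at, read 10.43, 10.39, 10.39 and 10.41 in WT contralateral and ipsilateral and then *P4htm*-/- contralateral and ipsilateral cortex. Over the 3 bright probe sets the ipsilateral difference lay between -0.09 and 0.07 in WT and between 0.02 and 0.14 in *P4htm*-/- cortex. The dim probe set 1419088_at read 4.87, 5.28, 5.63 and 5.31, highest on the *P4htm*-/- contralateral array and lowest on the WT contralateral array. Its ipsilateral difference was 0.41 in WT and -0.32 in *P4htm*-/- cortex, neither past 1.5-fold.

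Among the metalloproteinases, *Mmp3* and *Mmp12* were higher on the ipsilateral side of WT cortex. *Mmp3*, which encodes stromelysin 1, an enzyme that can activate the MMP9 precursor, read 3.56 in WT contralateral, 6.46 in WT ipsilateral, 4.02 in *P4htm*-/- contralateral and 5.79 in *P4htm*-/- ipsilateral cortex. Only the ipsilateral arrays were above background, so the ipsilateral value was at least 1.68 higher in WT mice, or at least 3.19-fold. In *P4htm*-/- mice it was at least 1.01 higher, or at least 2.01-fold. *Mmp12*, which encodes the macrophage elastase, read 3.62, 5.30, 4.50 and 4.68 in the same order. WT ipsilateral cortex was the only condition above background, at least 0.52 over the contralateral value, a bound short of 1.5-fold, while the measured 1.68 takes a value below the limit at face value. In *P4htm*-/- cortex *Mmp12* was not above background on either side, so its difference there is unresolved.

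The gelatinases *Mmp2* and *Mmp9* and the membrane-bound *Mmp14* stayed under 1.5-fold between the sides. *Mmp9*, a product of neutrophils and of activated glia and vessels, read 5.14 in contralateral and 5.39 in ipsilateral cortex of WT mice at 1416298_at, against 4.95 and 5.30 in *P4htm*-/- mice. It was thus 0.25 and 0.35 higher on the ipsilateral side, where the receptor probe sets had an SD of 0.21 and 0.18, and its second probe set was not above background on any array. *Mmp14*, whose product activates the MMP2 precursor at the cell surface, went from 7.71 to 8.01 in WT and from 7.66 to 8.07 in *P4htm*-/- cortex at 1448383_at, contralateral value first. The probe set 1440920_at gave ipsilateral differences of 0.33 and 0.29, close to the 0.30 and 0.41 of 1448383_at, and 1416572_at was not above background on any array. *Mmp2* was dim, with 5.28, 5.36, 5.33 and 4.94 at 1439364_a_at in the order WT contralateral and ipsilateral and then *P4htm*-/- contralateral and ipsilateral. Its other probe set, 1416136_at, read 4.39, 4.82, 4.49 and 4.81, above the limit by 0.04 and 0.03 on the ipsilateral arrays. In *P4htm*-/- cortex the brighter probe set was at -0.39 between sides, and the dimmer one, with a contralateral value not above background, was higher by at least 0.03.

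The pair of ADAMTS genes moved in opposite directions between sides, and each did so in both genotypes. *Adamts1*, a secreted protease that cleaves proteoglycans such as versican and aggrecan, read 7.01 in WT contralateral, 8.33 in WT ipsilateral, 6.82 in *P4htm*-/- contralateral and 8.29 in *P4htm*-/- ipsilateral cortex. It was 1.32 higher on the ipsilateral side in WT, or 2.50-fold, and 1.47 higher in *P4htm*-/- cortex, or 2.77-fold, with all 4 values above background. *Adamts20*, a versican-cleaving protease known from pigment cell development, read 7.10, 6.34, 6.73 and 6.12 in the same order. Its ipsilateral difference was -0.76 in WT and -0.61 in *P4htm*-/- cortex, numbers 31 and 37 from the lowest among the detected probe sets. Each gene had 1 probe set, so neither has a second reading on the array.

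**Figure D2:**
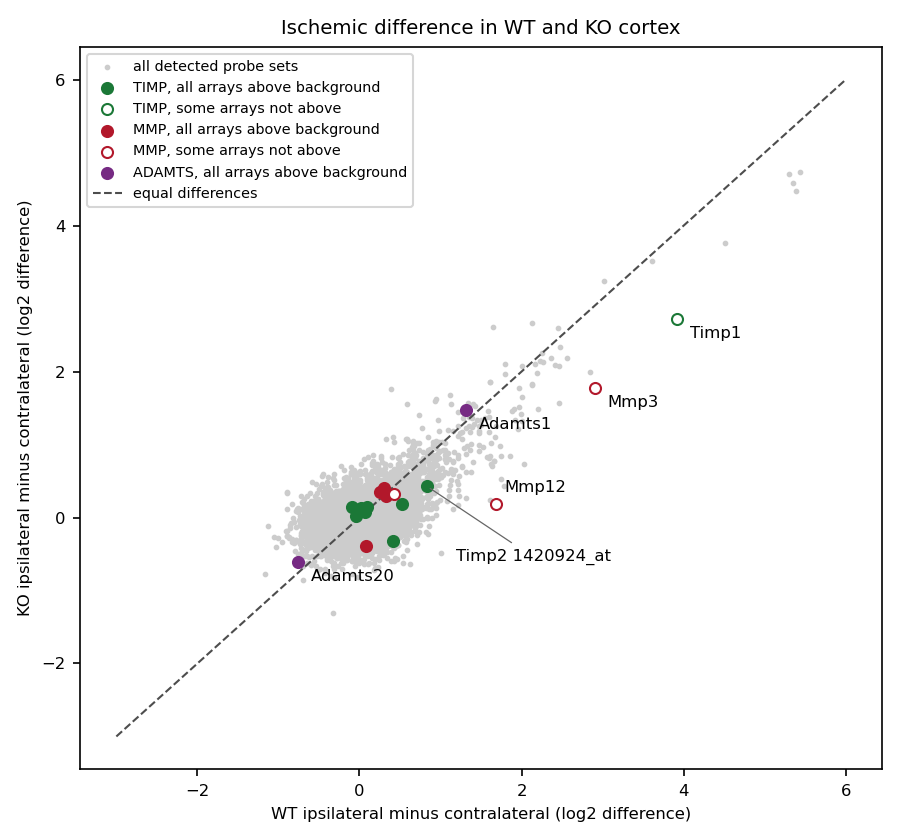
Ipsilateral minus contralateral log2 difference of each detected probe set, with WT on the horizontal and *P4htm*-/- (KO) on the vertical axis, 1 pooled array behind each condition, TIMPs in green, MMPs in red, ADAMTS genes in purple and all probe sets in grey, with open symbols where some arrays were not above background, whose positions are not resolved. *Timp1*, *Mmp3* and *Mmp12* are open symbols below the dashed line of equal differences, and *Adamts1* (1.32 and 1.47) and *Adamts20* (-0.76 and -0.61) are filled and lie close to it.

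The genotypes were then compared on each side, comparisons that use the same 4 arrays as those between sides. In contralateral cortex 2 of 16 detected probe sets were higher in *P4htm*-/- than in WT mice and 0 were lower, beside 0.362% and 0.323% of all 23494. These were *Timp1*, with 4.99 in *P4htm*-/- and 4.37 in WT cortex, and the dim *Timp3* probe set 1419088_at, with 5.63 and 4.87. Since the WT value of *Timp1* was not above background, its *P4htm*-/- value was at least 0.21 higher, which falls short of 1.5-fold. With values below background set to the limit 1 probe set was higher, that of *Timp3*, beside 0.285% of all. The 3 bright probe sets of *Timp3* had differences of -0.04, 0.06 and -0.24, so the 0.76 of the dim one was not shared by them. The lowest difference was that of *Adamts20*, at -0.37, and the median of the 16 was -0.03, beside -0.01 for all. The detected *Timp2* and *Mmp14* probe sets lay between -0.09 and 0.07, apart from the dim *Timp2* probe set 1420924_at, at 0.42. *Mmp3* and *Mmp12* were not above background on either contralateral array.

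In ipsilateral cortex *P4htm*-/- mice had 0 of 19 detected probe sets higher and 2 lower than WT mice, beside 0.215% and 0.498% of all 23699. *Mmp3* was lower by a difference of -0.67, with both values above background. *Mmp12*, at 4.68 in *P4htm*-/- and 5.30 in WT cortex, was lower by at least 0.52, which falls short of 1.5-fold. With values below background set to the limit *Mmp3* was thus the 1 probe set called lower, beside 0.426% of all. *Timp1* differed by -0.58, which is 1.49-fold and just short of the threshold. *Adamts1* at -0.04, *Mmp14* at 0.06 and -0.06, *Mmp9* at -0.09 and the bright *Timp3* probe sets at -0.01 to 0.07 differed by less than the SD of the receptor probe sets, 0.20. *Adamts20* was at -0.22 and the brighter *Mmp2* probe set at -0.42, while the dim one was at -0.01. The median of the 19 probe sets was -0.01, beside 0.01 for all. With a 2-fold rule 0 member probe sets were called between genotypes on either side.

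**Figure D3:**
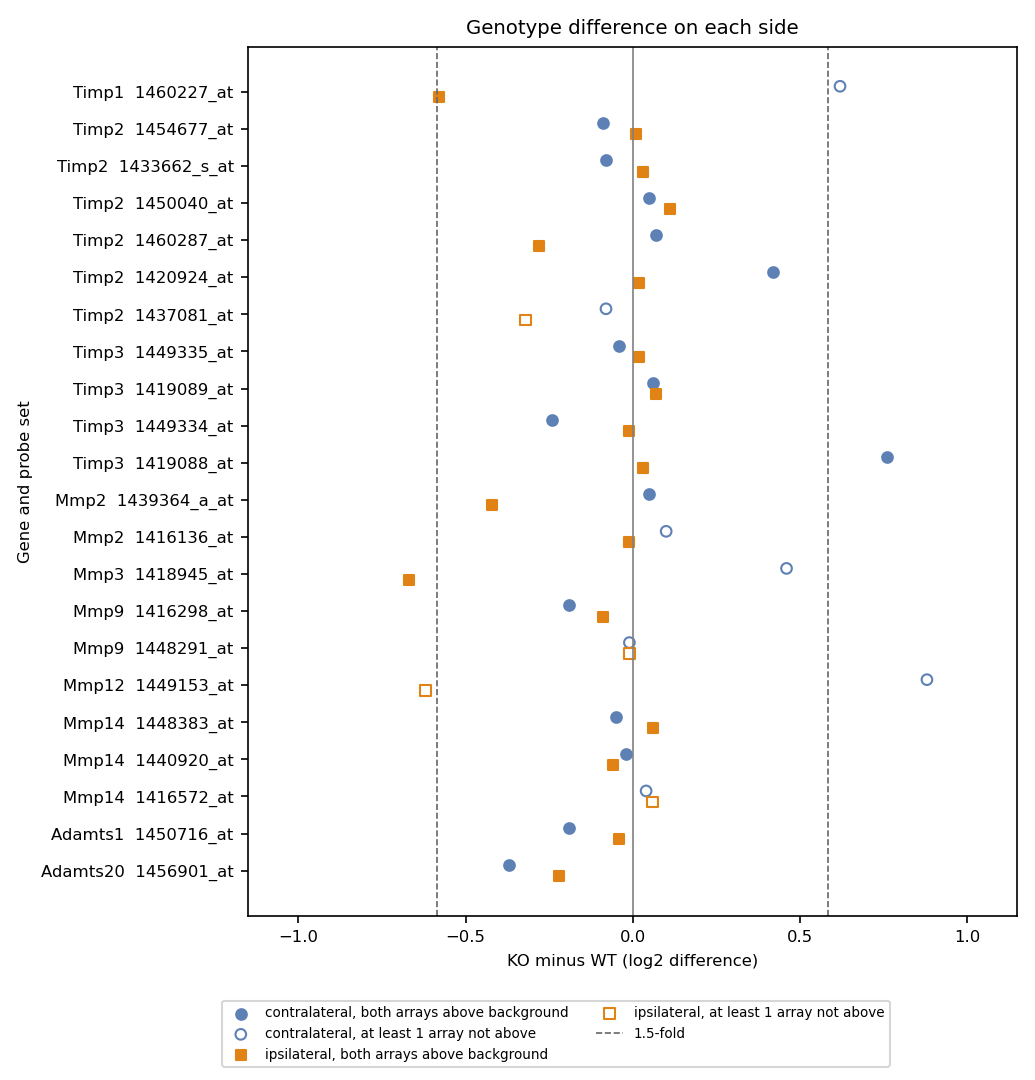
*P4htm*-/- (KO) minus WT log2 difference (horizontal axis) of each probe set (vertical axis) in contralateral (blue circles) and ipsilateral cortex (orange squares), 1 pooled array per condition, with open symbols where at least 1 of the arrays was not above background, whose positions are not resolved, and dashed lines at 1.5-fold. Among the filled symbols *Timp3* 1419088_at lies at 0.76 and *Mmp3* at -0.67, while most probe sets of *Timp2*, *Timp3* and *Mmp14* lie near 0.

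By measured values the ischemic difference was lower in *P4htm*-/- than in WT cortex for 4 of 19 detected probe sets and higher for 0, taking 1.5-fold as the threshold, beside 1.46% and 1.03% of all 23971. With values below background set to the limit 3 were lower and 0 higher, beside 1.13% of all that were lower. The *P4htm*-/- minus WT value of the ischemic differences was then -0.79 for *Timp1*, -0.67 for *Mmp3* and -0.73 for *Timp3* at 1419088_at. Both contralateral values of *Mmp3* were set to the limit, so its -0.67 repeats the ipsilateral genotype difference. How its ischemic difference compares between genotypes is unresolved. *Mmp12* was at -0.52, short of the threshold, and is unresolved in the same way. Both of its contralateral values and its *P4htm*-/- ipsilateral value were below background. The measured -1.20 of *Timp1* and -1.13 of *Mmp3* take contralateral values below the limit at face value. The receptor probe sets had a mean of -0.11 and an SD of 0.29 for the measured quantity. *Adamts1* and *Adamts20* were both at 0.15, and *Mmp9* and *Mmp14* were at 0.10 and 0.11 at their brightest probe sets. The 3 bright *Timp3* probe sets were at 0.06, 0.01 and 0.23, so the value of the dim one was not shared by them.

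The rest of the pathway was described with gene lists, taking the probe set with the highest mean for each gene. At this level 2.42% of all detected genes were higher and 0.443% lower on the ipsilateral side in WT, and 1.53% and 0.165% in *P4htm*-/- cortex. Between genotypes 0.227% were higher and 0.159% lower in *P4htm*-/- contralateral cortex, and 0.0898% and 0.576% in ipsilateral cortex. Of the inhibitors not among the members, *Timp4* read 9.03, 8.87, 8.92 and 8.75 in WT contralateral and ipsilateral and then *P4htm*-/- contralateral and ipsilateral cortex. *Reck*, a membrane-anchored inhibitor, read 7.69, 7.38, 7.64 and 7.58. The ipsilateral values of these inhibitors were below the contralateral ones of the same genotype, by 0.31 or less.

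Of 13 measured metalloproteinases beyond the members, 7 were above background on at least 1 array, and 0 were past 1.5-fold in any of the 4 comparisons. Their medians between sides were -0.06 in WT and -0.02 in *P4htm*-/- cortex, beside -0.02 for all genes in both. *Mmp8* and *Mmp13*, the collagenases, were not above background on any array. Of 9 detected genes of other ADAMTS proteases, 2 were higher in WT and 1 in *P4htm*-/- ipsilateral cortex. *Adamts9*, another versican-cleaving enzyme, went from 5.53 to 6.36 in WT and from 5.76 to 6.61 in *P4htm*-/- cortex, differences of 0.83 and 0.85. *Adamts15* was 0.59 higher in WT and at -0.10 in *P4htm*-/- cortex. Of 11 ADAM genes, some of which encode proteases that shed membrane proteins, *Adam8* of leukocytes was the only one past 1.5-fold. It was at 0.69 in WT and 0.30 in *P4htm*-/- cortex between sides.

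Activators and regulators of the enzymes included 4 genes that were higher in WT ipsilateral cortex, of 15 detected, and 3 of 14 in *P4htm*-/- ipsilateral cortex. *A2m*, a broad protease trap, was higher by 2.45 and 2.60 in WT and *P4htm*-/- cortex. *Serpina3n*, a serine protease inhibitor of reactive astrocytes, was higher by 2.23 and 2.14. *Lcn2*, whose product binds MMP9, was higher by 1.65 in WT and by at least 1.94 in *P4htm*-/- cortex, and lower in *P4htm*-/- than in WT contralateral cortex by at least 0.11. *Thbs1*, which encodes thrombospondin 1, was above background in WT ipsilateral cortex alone, at least 0.21 higher. The median of the list was 0.10 in WT and 0.15 in *P4htm*-/- cortex. *Serpina3n* and *Lcn2* also stand among the reactive astrocyte markers given further on.

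Another list held cytokines and transcription factors of the AP-1, ETS and STAT3 routes, known inducers of metalloproteinase genes, and the feedback gene *Socs3*. On the ipsilateral side 6 of 16 detected genes were higher in WT and 3 of 15 in *P4htm*-/- cortex, with *Socs3* counted in both. The list medians were 0.33 and 0.22. *Il11*, a cytokine of the same family as *Il6*, had bounds of at least 2.04 in WT and of at least 1.70 in *P4htm*-/- cortex. *Socs3*, a feedback gene of STAT3 signalling, was higher by 2.01 and 2.07. *Lif*, a cytokine that acts through STAT3, read 6.08 in WT and 5.02 in *P4htm*-/- ipsilateral cortex, a difference of -1.06 and the only gene of the list past 1.5-fold between genotypes. *Fosl1*, an AP-1 subunit, read 5.43 and 4.86 there, a difference of -0.57. *Il6* was above background in WT ipsilateral cortex alone, by 0.18. The bounds of *Il6* and *Thbs1* fall short of 1.5-fold, as does that of *Lcn2* between contralateral cortices. The substrates in hyaluronan-binding matrix and basal lamina had medians of 0.04 in both genotypes, with 1 of 21 genes higher (*Nid2*, nidogen 2, with a bound of at least 0.17, short of 1.5-fold) and 1 lower (*Tnr*, tenascin R, at -0.67) in WT cortex and 0 of 20 in *P4htm*-/- cortex.

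**Figure D4:**
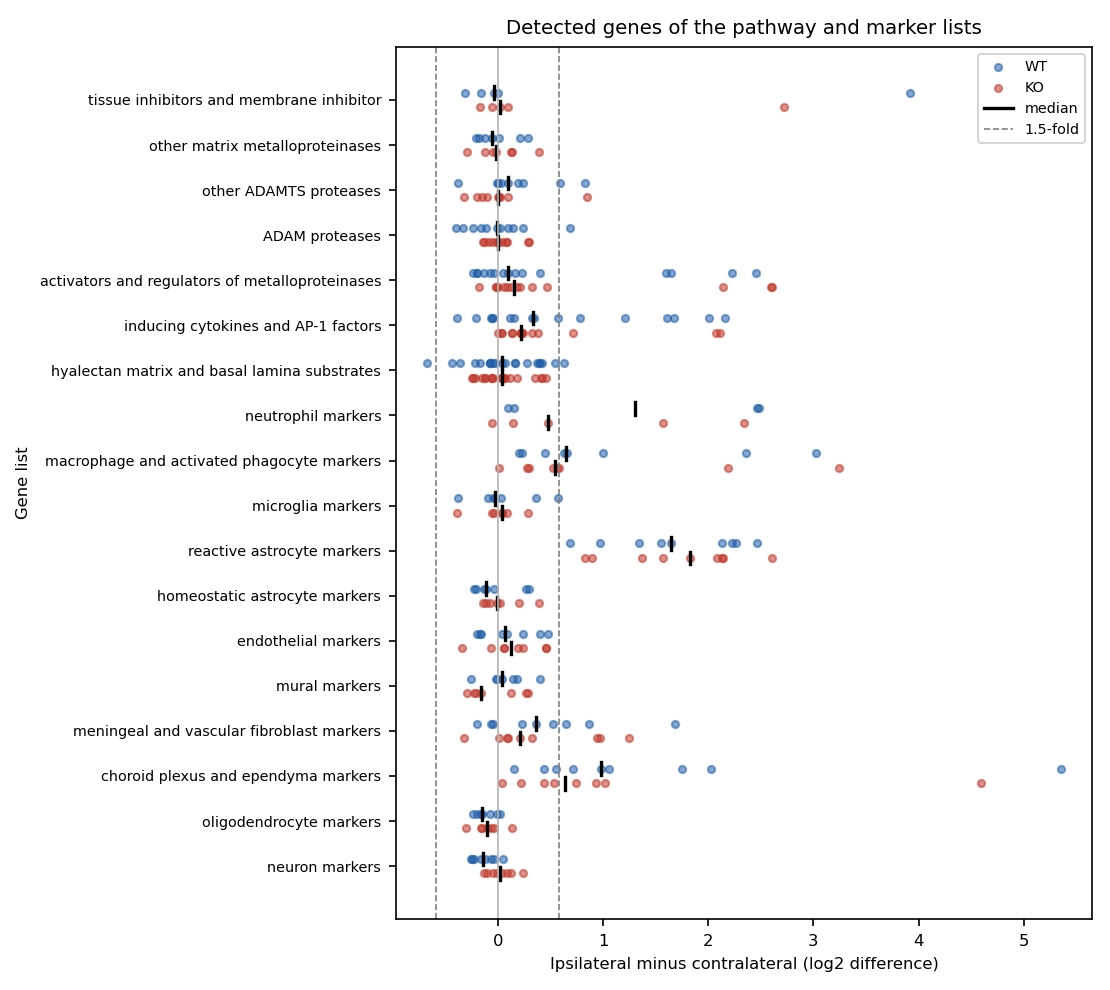
Ipsilateral minus contralateral log2 difference (horizontal axis) of each detected gene of the pathway and marker lists (vertical axis) in WT (blue) and *P4htm*-/- (KO, red) cortex, 1 pooled array per condition, with black bars for list medians and dashed lines at 1.5-fold. Medians of the protease lists lie near 0, and the medians of reactive astrocyte markers lie at 1.65 and 1.83.

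Markers of several cell types differed between the sides along with *Timp1*, *Mmp3* and *Mmp12*, and their part in those values was not tested. All 9 detected of 10 reactive astrocyte markers were higher in both genotypes, with list means of 6.39 in WT and 6.26 in *P4htm*-/- contralateral cortex and of at least 7.89 in ipsilateral cortex of both. Macrophage and activated phagocyte markers were higher for 5 of 8 detected genes in WT and 2 of 8 in *P4htm*-/- cortex, with list means of 5.14, 6.05, 5.16 and 5.92 in WT contralateral and ipsilateral and then *P4htm*-/- contralateral and ipsilateral cortex. The 7 measured microglia markers had 0 genes past 1.5-fold in either genotype, with list means of 8.22 to 8.35. In the same order as for phagocytes, neutrophil markers had list means of 4.37, 4.99, 4.69 and 5.18, and *S100a8* and *S100a9* were the markers past 1.5-fold, 2 of 4 detected in WT and 2 of 5 in *P4htm*-/- cortex. The granule gene *Ltf* was at 0.15 and -0.06 and the receptor gene *Csf3r* at 0.10 and 0.14. The granule genes *Camp*, *Elane*, *Mpo* and *Mmp8* and the receptor *Cxcr2* were not above background on any array.

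Between the contralateral cortices 1 of 4 detected neutrophil markers was past 1.5-fold, *S100a9*, with 5.39 in *P4htm*-/- and 4.28 in WT cortex, at least 0.61 higher. *S100a8* read 5.28 and 4.72 there, at least 0.50 higher, *Ltf* was at 0.08 and *Csf3r* at -0.05. *Emcn*, an endothelial marker, was lower in *P4htm*-/- contralateral cortex at -0.78, 1 of 8 endothelial markers past 1.5-fold. In ipsilateral cortex 1 of 5 neutrophil markers passed by measured values, *Ngp*, above background in *P4htm*-/- mice alone with a bound of at least 0.12, short of 1.5-fold. The part of these genes in the genotype differences of *Timp1*, *Mmp3* and *Mmp12* was not tested. Markers of choroid plexus and ependyma were higher on the ipsilateral side for 6 of 9 genes in WT and 4 of 8 in *P4htm*-/- cortex, and those of fibroblasts for 3 of 9 in both. The widest of these differences were those of *Ttr*, transthyretin, at 5.35 and 4.59. Fibroblast list means were 7.54, 7.98, 7.46 and 7.86 in the order of arrays above, and those of choroid plexus and ependyma 5.55, 7.00, 5.54 and 6.56. Of 9 choroid plexus and ependyma markers detected in the ipsilateral cortices 2 were lower in *P4htm*-/- mice, *Calml4* at -1.67 and *Ecrg4* at -1.16, with *Ttr* at -0.44 and a list median of -0.20. Endothelial, mural, homeostatic astrocyte, oligodendrocyte and neuron markers had 0 genes past 1.5-fold between the sides. Between genotypes in ipsilateral cortex 0 of 9 reactive astrocyte and 0 of 8 phagocyte markers were past 1.5-fold.

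The genes whose profile over the 4 arrays was most like that of a member were found by Euclidean distance between mean-centred values among 13447 other detected genes. Each of these genes was read at its probe set of highest mean alone. For *Timp1* they were *Ptx3*, *Lgals3* and *Ccl12*, at distances of 0.62, 0.80 and 0.90. Their ipsilateral *P4htm*-/- minus WT differences were 0.10, -0.19 and -0.67. For *Mmp3* they were *Tubb6*, a beta-tubulin, at 0.17, *Cd44*, the hyaluronan receptor, at 0.39 and *Arg1* at 0.49. *Mmp12* was nearest to *Wfdc17*, *Cd52* and *Adm*, at 0.37 to 0.42. Of the 4 arrays *Timp1* was above background on 3, *Mmp3* on 2 and *Mmp12* on 1, so these profiles include values that are not resolved. The genes nearest to *Adamts1* were *Ctsc*, *Ccl2* and *Gbp2*, at 0.08 to 0.09, and those nearest to *Adamts20* were *Heph*, *Pdzph1* and *6330415B21Rik*, at 0.09 to 0.13. The dim *Timp2* probe set 1420924_at lay nearest to *Isg20*, *Cdkn1a* and *Tnc*, at 0.02 to 0.07, and the dim *Timp3* probe set to *Srp54b*, *Prss51* and *Cd109*, at 0.12 to 0.14. *Lgals3*, *Cd44*, *Arg1* and *Gbp2* are also on the marker lists. With 4 arrays such a likeness is a description of these pools.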

How the data were processed

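The authors quantified Affymetrix whole-genome mouse expression arrays with GeneChip Operating System and normalized them with GenePattern software, and the submitters' processing notes name RMA, which corrects background, brings arrays to a common distribution and summarizes each probe set. The deposited values are log2 values, with the base taken as 2 from their range of 2.51 to 14.90. No source used here names a version. Quantile normalization removes a shift shared by all genes of an array. Each condition has 1 array of 4 pooled mice, the number of arrays limits the precision, and no test was made.

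Of 45101 probe sets 34958 name 1 gene, 932 name several and 9211 none in the annotation used, and 34754 symbols were looked up in RefSeq (GRCm38.p6) by Entrez ID. The array files name no build, so coordinates are given for the RefSeq promoter sequences alone. Of the table's columns 0 were left unused. Differences, detection and the 1.5-fold rule were computed as given in the report and tested on simulated data. Members and lists were chosen with earlier results of these data known. The rule for named genes took every member and probe set, up to 4 genes per list and direction past 1.5-fold, the 3 nearest genes of each detected member whose range reached 1.5-fold, and *P4htm*. *Timp4*, *Reck*, *Mmp8*, *Mmp13*, *Fosl1*, *F13a1*, *Camp*, *Elane*, *Mpo*, *Ltf*, *Csf3r* and *Cxcr2* do not come from this rule and were added with their values known. Alternatives were the 90th and 99th percentile as background, no detection filter, a 2-fold rule, median centring, cyclic loess, means of probe sets, all measured genes and values below background set to the limit. A search for protein motifs of the members was planned and not run, since no protein sequences were used here. Python 3.11.15, numpy 2.4.6, pandas 2.3.3, matplotlib 3.10.9, R 4.3.3 and limma 3.58.1 were used.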

Additional observations from a re-analysis of the deposited data

Results flagged for a closer look

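*Timp1* stood out because its genotype difference had opposite signs on the sides of the brain, with measured *P4htm*-/- minus WT values of 0.62 on the contralateral and -0.58 on the ipsilateral side (log2). The WT contralateral value was not above background, so the first of these is resolved only as at least 0.21. The dim *Timp3* probe set 1419088_at stood out because its ipsilateral minus contralateral difference was 0.41 in WT and -0.32 in *P4htm*-/- cortex. Neither difference between groups was tested, since each group is 1 array.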

How the results depend on the processing

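With 1 array per condition no replicate could be left out, and no paired analysis was possible because each group has 1 pooled array. With background at the 99th percentile of the receptors, 6.59, 2 member probe sets were higher in WT ipsilateral cortex, 0 were higher in *P4htm*-/- contralateral and 0 lower in *P4htm*-/- ipsilateral cortex, since fewer probe sets were tested. With values below background set to the limit, an alternative chosen after seeing the data, 1 was higher in *P4htm*-/- contralateral and 1 lower in *P4htm*-/- ipsilateral cortex. With a 2-fold rule 0 were lower on the ipsilateral side in WT and 0 in *P4htm*-/- cortex, and 0 differed between genotypes in either direction. The other counts of members, also with the 90th percentile (4.40), no detection filter, median centring, cyclic loess or several-gene probe sets, were within 1.5 times those reported. With means of probe sets the reactive astrocyte median was 1.39 in WT and 1.32 in *P4htm*-/- cortex, that of choroid plexus and ependyma 0.66 in WT cortex, and over all measured genes the neutrophil median was 0.17 in WT and 0.14 in *P4htm*-/- cortex. The values with the brightest probe set of detected genes were 1.65, 1.83, 0.98, 1.30 and 0.48. The cause was not tested. Of 216 recomputed member differences 3 moved beyond the receptor SD and 0 reversed. These were *Timp2* at 0.28 in WT ischemia, *Mmp2* at -0.04 in *P4htm*-/- ischemia and -0.21 between ipsilateral cortices, with probe sets averaged. Scaling moved the median of all probe sets by 0.03 or less.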
